A study of Mus musculus with 4 samples.

Results

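The adenylyl cyclases are the enzymes that make cyclic AMP (cAMP), and the 10 mouse genes of the family, Adcy1 to Adcy10, were followed in liver RNA. They are 10 of the 48709 genes in the count tables. The family was selected on the readout itself, because Adcy1 was among the largest rises in libraries labelled DDI2-KO. The other members were taken because they belong to the family, whatever their values. Reads were found on 9 of the 10 genes, and 7 passed the filter on low counts and entered the test across all genes, Adcy1 only through its counts in the libraries labelled DDI2-KO.

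DDI2 is an aspartic protease known for cutting and activating the transcription factor NRF1. Livers of untreated C57BL/6 mice were compared as 4 mRNA libraries, 2 labelled WT and 2 labelled DDI2-KO, to find genes whose RNA depends on DDI2. DDI2-KO mice were DDI2 flox/flox and carried Cre under the albumin promoter, so that recombination is aimed at hepatocytes and most other cells of the liver keep the gene. WT mice were littermates with the floxed allele and no Cre, so an effect of Cre itself and one of losing DDI2 cannot be told apart. The mice were adults, given as 6 to 12 weeks old and of both sexes; the sex of each mouse is not in the labels. Xist, which is transcribed from the inactive X chromosome of females and was chosen here after its values were seen, had 17484 and 11533 reads in WT against 1230 and 3288 in those labelled DDI2-KO, and both of the latter lay below both WT libraries (log2 fold change -2.23, edgeR adjusted p = 0.120). The part of this in the results was not tested. Reads on 4 Y-linked genes (Ddx3y, Kdm5d, Uty and Eif2s3y) were listed at 0 in all 4 libraries, while Xist had reads in each. By these counts all 4 libraries had the pattern of females and none that of males, although no label states it.

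Cyclases turn ATP into cAMP when a hormone receptor on the cell surface activates the stimulatory G protein, and inhibitory G proteins restrain many of them. In the liver this is the route by which glucagon and adrenaline, acting through cAMP and protein kinase A, switch on glycogen breakdown and the making of glucose. The members differ in their controls. Adcy1, Adcy3 and Adcy8 are known as the members stimulated by calcium and calmodulin, and Adcy5 and Adcy6 are inhibited by calcium. Adcy2, Adcy4 and Adcy7 respond to G protein beta-gamma subunits. Among the membrane-bound members Adcy9 is the least sensitive to forskolin, and Adcy10 is a soluble enzyme stimulated by bicarbonate.

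Reads on genes came to 34109018 and 31532247 in the WT libraries and to 25582344 and 22501208 in those labelled DDI2-KO. A floor of 3 counts corresponded to 0.0892 and 0.0971 CPM (counts relative to the library size scaled by TMM) in WT and to 0.116 and 0.131 CPM in those labelled DDI2-KO. Floors and intervals given here cover counting error only. Ddi2, the gene targeted in the mice, had 4749 and 3812 reads in WT against 4068 and 3777 in those labelled DDI2-KO, or 132 ± 12.6 against 161 ± 5.09 CPM (SD, n = 2 each). By the quasi-likelihood test of edgeR, with Benjamini-Hochberg adjustment over all genes tested, the log2 fold change of Ddi2 was estimated at 0.28 (standard error 0.17, adjusted p = 0.349). The scaled level was thus not lower under the DDI2-KO label. The count covers the whole gene, with no separate count of the floxed part, and 17.9% of the 50-base stretches of Ddi2 also occur in Rsc1a1, so it is no check of the labels. For this reason the group is called by its label throughout. The paper reports that its animals were genotyped by PCR at the start and end of each experiment. It also reports lower Mt1 and Mt2 RNA in DDI2-KO livers, by sequencing and by real-time PCR. For protein, the paper shows immunoblots of DDI2 in WT and DDI2-KO livers of mice given PBS or cadmium. In the same livers it reports that losing DDI2 blocked the cutting of NRF1 under cadmium.

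Adcy1, a cyclase best known from neurons, lies on chromosome 11 of GRCm38 (ENSMUSG00000020431, 7063489 to 7178506, plus strand), with 20 exons that cover 12522 bases. It had 6 and 12 reads in WT against 126 and 169 in those labelled DDI2-KO. The 95% Poisson intervals of these counts were 2.20 to 13.1 and 6.20 to 21.0 in WT and 105 to 150 and 144 to 196 in those labelled DDI2-KO. Both libraries labelled DDI2-KO were far above both WT libraries, although they were the shallower ones. In WT the RNA was close to the detection floor. After scaling, the Adcy1 level was 0.178 and 0.388 CPM in WT (mean 0.283 ± 0.148, SD, n = 2) and 4.87 and 7.35 CPM in those labelled DDI2-KO (mean 6.11 ± 1.76, SD, n = 2). The ratio of the means was 21.6, and the fitted log2 fold change was 4.42 (standard error 0.43). Since Adcy1 was chosen for this difference, the values describe these libraries. Adcy1 was in the test across all genes, but no conclusion is drawn from its p-value. Without WT replicate 2 the fitted log2 fold change of Adcy1 was 5.06. In bulk tissue, more cells that carry an RNA and more of that RNA per cell cannot be told apart.

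The genes next to Adcy1 in fitted log2 fold change, among those with an adjusted p under 0.05 in edgeR, are given only to place its value, since Adcy1 was chosen for its rise. Directly above it were Sult2a3, a sulfotransferase (3 and 0 reads in WT, 43 and 26 in those labelled DDI2-KO, fitted log2 fold change 4.79), and Aqp7, a glycerol channel (0 and 2 against 23 and 24 reads, 4.77). Directly below it were Wfdc16 (1 and 3 against 32 and 34 reads, 4.35) and Wfdc2, a secreted protein with whey acidic protein domains (52 and 88 against 729 and 563 reads, 3.59). With 0 to 3 reads in WT, the fitted values of Sult2a3, Aqp7 and Wfdc16 rest on few counts. Without WT replicate 1 they were 8.22, 3.81 and 3.74, and without WT replicate 2 they were 3.90, 7.74 and 5.31. Sult2a3, Aqp7 and Wfdc16 passed the filter on low counts only through the libraries labelled DDI2-KO. All of these genes were chosen for their fold change and adjusted p, so their p-values are no test of a difference.

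The upstream sequences of Adcy1, the member that differed most, and of Adcy9, one of the most abundant in WT, are shown to let the promoter of a cyclase near the floor be read beside that of an abundant one. Each is the 250 bases before the annotated start, 5′ to 3′ on the gene's own strand, from RefSeq on GRCm38.p6, with each CpG in capitals. Adcy1 is chr11:7063183-7063432, plus strand, and Adcy9 is chr16:4420499-4420748, minus strand.
Adcy1: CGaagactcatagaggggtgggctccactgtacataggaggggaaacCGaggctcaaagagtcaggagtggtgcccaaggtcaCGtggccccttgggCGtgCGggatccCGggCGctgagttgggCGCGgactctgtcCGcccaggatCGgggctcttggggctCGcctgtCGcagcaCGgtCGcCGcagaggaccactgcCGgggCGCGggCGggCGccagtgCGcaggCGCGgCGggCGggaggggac
Adcy9: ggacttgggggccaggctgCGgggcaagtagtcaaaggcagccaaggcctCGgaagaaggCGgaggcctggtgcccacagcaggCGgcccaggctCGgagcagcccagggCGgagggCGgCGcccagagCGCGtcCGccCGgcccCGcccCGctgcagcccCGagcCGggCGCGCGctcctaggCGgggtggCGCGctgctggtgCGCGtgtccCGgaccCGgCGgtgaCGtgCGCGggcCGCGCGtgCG
Both sequences are rich in CpG. Adcy1 has 26 CpG and 71.2% G or C, and Adcy9 has 34 and 78.8%, where the median of 32851 promoters is 6 CpG and 52.4%. Fewer CpG than in Adcy1 were found in 90.4% of those promoters, and fewer than in Adcy9 in 96.5%.

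RefSeq promoters were given for 8 of the 10 members, without Adcy6 and Adcy8, and were searched on both strands for 3 motifs. The cAMP response element TGACGTCA was in none of the members' windows and in 1.55% of all promoters. Its short form TGACG, which every full element contains, was in 17.8% of all promoters, in Adcy9 once, and in 1 of the 3 windows of Adcy7. The core of the antioxidant response element, TGACNNNGC, which can share its first letters with TGACG and is the kind of element NRF1 binds, was in 10.2% of all promoters and, among the members, in Adcy5 only. The Adcy1 window held none of the 3, which says only that these letters are absent from these 250 bases.

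To set Adcy1 against the other cyclases, CPM was divided by the length of the merged exons in kilobases, which gives a level that can be compared between genes. On this scale Adcy6, a calcium-inhibited cyclase, had a level of 3.08 and 3.11 CPM per kb in WT and 4.80 and 4.46 in those labelled DDI2-KO. The Adcy9 level was 3.39 and 2.48 CPM per kb in WT and 3.49 and 2.09 in those labelled DDI2-KO. These were the leading cyclase RNAs of the liver in both groups. The Adcy4 level was 1.46 and 1.50 CPM per kb in WT and 1.47 and 1.20 in those labelled DDI2-KO. The Adcy7 level was 0.937 and 0.923 against 0.861 and 0.898 CPM per kb. Adcy4 and Adcy7 respond to beta-gamma subunits, as does Adcy2, whose level was 0.0636 and 0.115 CPM per kb in WT against 0.0367 and 0.0413. Levels per kb of Adcy1 were 0.0143 and 0.0310 in WT and 0.389 and 0.587 in those labelled DDI2-KO.

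**Figure D1:**
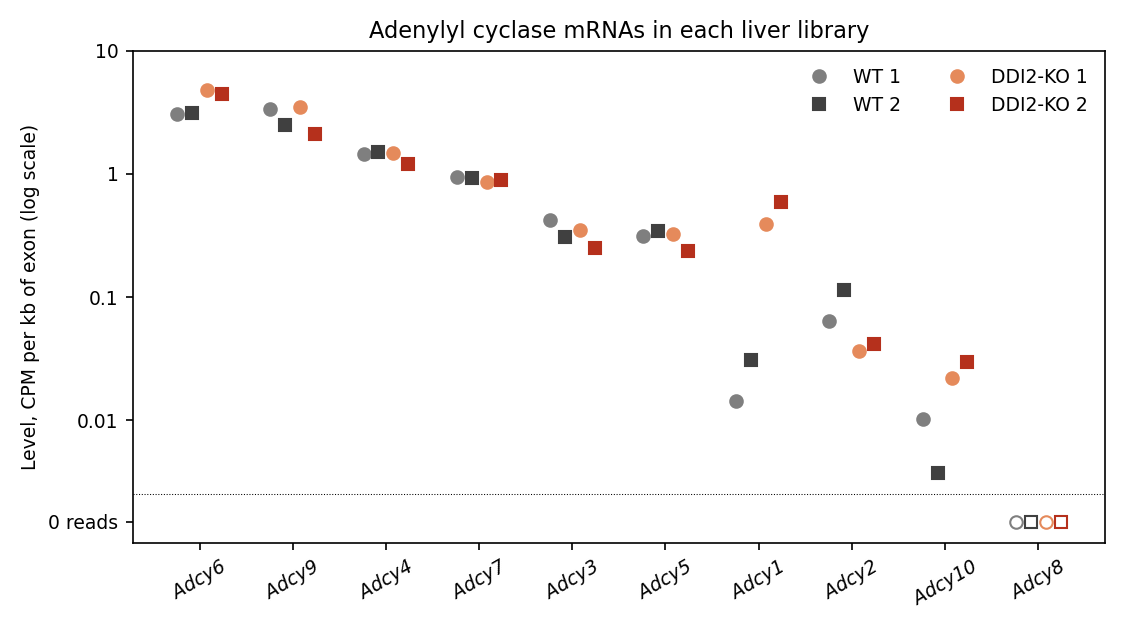
Level of each adenylyl cyclase RNA in each of the 4 libraries, as CPM per kb of exon on a log axis, with genes ordered by their mean over the libraries; each point is 1 library, and open symbols under the dotted line mark 0 reads. Adcy1 goes from 0.0143 and 0.0310 in WT to 0.389 and 0.587 in those labelled DDI2-KO, which is still under the level of Adcy7, Adcy4, Adcy9 and Adcy6.

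In WT the order of mean levels per kb was Adcy6, Adcy9, Adcy4, Adcy7, Adcy3, Adcy5, Adcy2, Adcy1, Adcy10 and Adcy8. Adcy6 and Adcy9 overlapped in their WT libraries, as did Adcy3 and Adcy5, so the order within these pairs is not resolved. In the libraries labelled DDI2-KO the order was Adcy6, Adcy9, Adcy4, Adcy7, Adcy1, Adcy3, Adcy5, Adcy2, Adcy10 and Adcy8, and only Adcy3 and Adcy5 overlapped among neighbours with reads. Adcy1 thus stood 8th in WT and 5th in those labelled DDI2-KO. It passed Adcy2 and also Adcy3 and Adcy5, whose levels per kb lay between 0.236 and 0.353 there, and stayed under Adcy7. Against all 13675 tested genes with a known length, the mean level per kb of Adcy6 exceeded 55.7% of them in WT and 64.6% in those labelled DDI2-KO, and that of Adcy9 exceeded 54.4% and 53.1%.

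As a share of the summed level per kb of the 10 cyclases, Adcy1 made up 0.147% and 0.352% in WT and 3.31% and 5.99% in those labelled DDI2-KO. The group means were 0.250 ± 0.145% and 4.65 ± 1.90% (SD, n = 2 each). Adcy1 therefore remained a small part of the pool in every library. Measured against the level per kb of Adcy6, that of Adcy1 was 0.463% and 0.997% in WT and 8.10% and 13.2% in those labelled DDI2-KO. Against that of Adcy9 it was 0.420% and 1.25% in WT and 11.2% and 28.1% in those labelled DDI2-KO. The highest of these, in replicate 2 labelled DDI2-KO, combines the highest Adcy1 level with the lowest Adcy9 level of the 4 libraries.

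**Figure D2:**
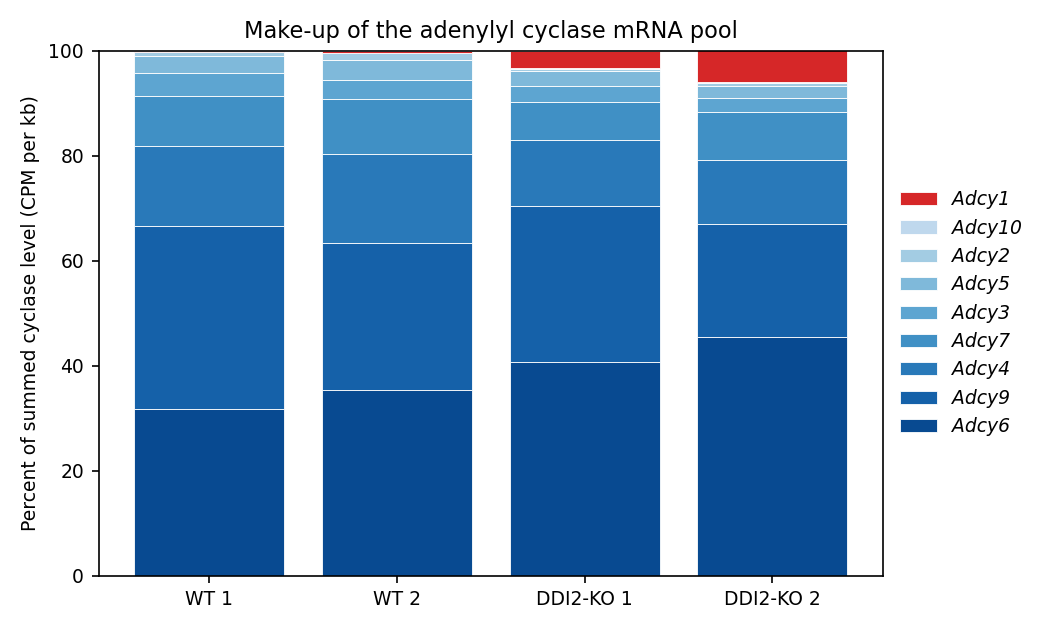
Share of each member in the summed cyclase level (CPM per kb) of each library, as stacked bars from 0 to 100%; Adcy8 had no reads. Adcy6 and Adcy9 together make up 66.7% and 63.5% in WT and 70.5% and 66.9% in those labelled DDI2-KO, and Adcy1, in red, makes up 0.147% and 0.352% against 3.31% and 5.99%.

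Adcy6 and Adcy9 together held most of the pool in each library, at 66.7% and 63.5% in WT and 70.5% and 66.9% in those labelled DDI2-KO. Adcy6 alone had a share of 31.7% and 35.3% in WT and of 40.8% and 45.5% in those labelled DDI2-KO. The ratio of the Adcy6 level to the Adcy9 level, per kb, was 0.907 and 1.26 in WT and 1.38 and 2.13 in those labelled DDI2-KO. The groups did not overlap in this ratio, but the WT libraries lay on either side of equality, and the ratio was not tested.

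The summed level of the 10 cyclases was 9.70 and 8.81 CPM per kb in WT and 11.7 and 9.80 in those labelled DDI2-KO. The group means of this sum were 9.25 ± 0.631 and 10.8 ± 1.38 CPM per kb (SD, n = 2 each), a ratio of 1.16. The difference of 1.52 CPM per kb is close to the spread between replicates and rests on single libraries: it was 0.544 without DDI2-KO replicate 1 and 2.49 without DDI2-KO replicate 2. Without Adcy1 the sum was 9.69 and 8.78 CPM per kb in WT and 11.4 and 9.21 in those labelled DDI2-KO, and the groups overlapped. Within the sum, the mean of Adcy6 was 3.10 CPM per kb in WT and 4.63 in those labelled DDI2-KO. The means of Adcy2, Adcy3, Adcy4, Adcy5, Adcy7 and Adcy9 were lower in those labelled DDI2-KO, and that of Adcy10 was higher. The part of Adcy6 in the difference was not tested.

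The other 9 members were not chosen for their values, and 6 of them passed the filter and were tested. None of the 6 passed an adjusted p of 0.05 by edgeR, DESeq2 or limma-voom. Over all genes, edgeR called 346 of 13699 (2.53%), 182 higher (1.33%) and 164 lower (1.20%) under the DDI2-KO label; DESeq2 called 7.29% and limma-voom 0.993%. At an unadjusted p under 0.05 in edgeR there was 1 of the 6, Adcy6, against 23.5% of all genes tested. With both DDI2-KO values above both WT values there was again 1 of the 6, Adcy6 (28.0% of all genes tested), and where both lay below there was 1, Adcy7 (27.7%). These shares are no higher than those of all genes. The libraries of a group are described as biological replicates, but no label ties each to a mouse of its own, and the p-values measure the spread between these samples.

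Adcy6 (ENSMUSG00000022994, chromosome 15, 98589973 to 98610076, minus strand) had 702 and 652 reads in WT against 842 and 695 in those labelled DDI2-KO. In both scaled libraries labelled DDI2-KO its level was above WT. The mean level per kb was 3.10 ± 0.0233 in WT and 4.63 ± 0.238 in those labelled DDI2-KO (SD, n = 2 each). The log2 fold change came to 0.58 (standard error 0.16; edgeR adjusted p = 0.0829), higher in 2 of 2 libraries. The difference did not pass the threshold after adjustment. It did without the filter on low counts (log2 fold change 0.59, edgeR adjusted p = 0.0339), while DESeq2 gave an adjusted p of 0.0764 and limma-voom of 0.0926. Of the Adcy6 exons 8.92% overlap Gm29331, an antisense gene with 0 reads in every library. All 605 exon bases of Gm29331 lie in this overlap. If strand was ignored in counting, its count would be 0 at any level. Whether the counting used strand is not given in the sources used here, so reads of the overlapping part could not be assigned.

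Adcy9 (ENSMUSG00000005580, chromosome 16, 4287529 to 4420498, minus strand) had 593 and 398 reads in WT against 469 and 250 in those labelled DDI2-KO. In level it varied as much between replicates as between groups, and the groups overlapped. The log2 fold change came to -0.07 (standard error 0.27; edgeR adjusted p = 0.903). The sign turned when single libraries were left out, to 0.17 without WT replicate 1 and 0.26 without DDI2-KO replicate 2.

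Adcy3, a cyclase best known for odour signalling, had 89 and 59 reads in WT against 57 and 36 in those labelled DDI2-KO. Of its exons 22.1% overlap Cenpo on the opposite strand (161 and 143 reads in WT, 143 and 146 in those labelled DDI2-KO), so its count is uncertain. Adcy5, which is abundant in striatum and heart, had 76 and 76 reads in WT against 61 and 39 in those labelled DDI2-KO. For both genes the groups overlapped in level. The log2 fold changes of Adcy3, Adcy4, Adcy5 and Adcy7 were -0.27, -0.15, -0.22 and -0.08, with standard errors of 0.34, 0.21, 0.31 and 0.21 and adjusted p of 0.674, 0.726, 0.719 and 0.850 from edgeR. With changes no larger than their standard errors, none was told apart from 0. Adcy4 and Adcy5 came to 0.00 and 0.01 without DDI2-KO replicate 2. Adcy3 came to -0.01 without WT replicate 1 and to -0.54 without DDI2-KO replicate 1.

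The 3 remaining members had few or no reads and did not pass the filter; in edgeR without it, Adcy2 and Adcy10 were tested and neither was called. Adcy2, a brain cyclase, had 9 and 15 reads in WT against 4 and 4 in those labelled DDI2-KO; 4.49% of its exons overlap Gm35161, an antisense gene that is not in the count tables. Adcy10, best known from sperm, had 3 and 1 reads in WT against 5 and 6 in those labelled DDI2-KO. Adcy8, like Adcy1 a calmodulin-stimulated cyclase of the brain, was listed at 0 in all 4 libraries, which allows a level of up to 0.0892 to 0.131 CPM. Adcy2 lay lower and Adcy10 higher in both libraries labelled DDI2-KO, at counts too low for the filter. In the libraries labelled DDI2-KO, Adcy2 was near the detection floor and Adcy8 had no reads, so their counts say little beside that of Adcy1.

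Apart from the cyclases, 143 genes of cAMP signalling were listed by role, and 102 of them were tested. By edgeR, 2 of these had an adjusted p under 0.05 (1.96%, against 2.53% of all genes), G6pc higher and Per1 lower. At an unadjusted p under 0.05 in edgeR there were 21 (20.6%, against 23.5%). DESeq2 called 7 of the 96 to which it gave an adjusted p (7.29%, and 7.29% of all genes), and limma-voom called 1 of the 102, G6pc (0.980%, against 0.993%). These shares are near those of all genes. In sign, 42 of the 102 were higher and 60 lower, with a median log2 fold change of -0.04, where all 13699 genes had 6672 higher, 7027 lower and a median of -0.01.

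Among receptors that stimulate cyclases through Gs, 11 of 26 listed were tested, none was called by edgeR, DESeq2 or limma-voom, and 0 had an unadjusted p under 0.05 in edgeR. The most abundant per kb was Gcgr, the glucagon receptor, with 4685 and 3746 reads in WT against 3242 and 2407 in those labelled DDI2-KO (log2 fold change -0.18, edgeR adjusted p = 0.586). Of the receptors that inhibit cyclases through Gi, 6 of 14 were tested, and edgeR called none (2 at an unadjusted p under 0.05). DESeq2 called 1, the adenosine receptor Adora1, which had 724 and 1362 reads in WT against 433 and 359 in those labelled DDI2-KO (log2 fold change -1.02, edgeR adjusted p = 0.131). S1pr1, a sphingosine-1-phosphate receptor, was the most abundant per kb (log2 fold change 0.07, and -0.30 without DDI2-KO replicate 2). For the heterotrimeric G proteins 16 of 20 were tested, 11 higher and 5 lower, and edgeR called none (3 at an unadjusted p under 0.05). DESeq2, and edgeR without a filter on low counts, called Gng11, a gamma subunit (log2 fold change 0.84, edgeR adjusted p = 0.0665 with the filter). Gnas, the stimulatory alpha subunit and the most abundant of them per kb in the mean of the 4 libraries (in WT the mean of Gnai2 was above it), had a log2 fold change of 0.25 (edgeR adjusted p = 0.395). None of the 6 cyclase modulators was called by edgeR, DESeq2 or limma-voom, with 0 at an unadjusted p under 0.05 in edgeR. Calm2, which encodes calmodulin, an activator of Adcy1, and was the most abundant modulator per kb, had 4302 and 4822 reads in WT against 3545 and 3972 in those labelled DDI2-KO (log2 fold change 0.13, and -0.01 without WT replicate 1 and -0.04 without DDI2-KO replicate 2).

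Downstream of cAMP, none of the 9 genes of protein kinase A was called by edgeR, DESeq2 or limma-voom (1 at an unadjusted p under 0.05 in edgeR), and Prkar1a, a regulatory subunit and the most abundant per kb, had a log2 fold change of 0.33 (edgeR adjusted p = 0.272). Of 10 tested anchoring proteins of the kinase (median log2 fold change -0.27), edgeR called none, with 5 of the 10 at an unadjusted p under 0.05, where 23.5% of all genes were. DESeq2 called Akap11 (log2 fold change -0.65, edgeR adjusted p = 0.0744), and edgeR without a filter called Akap11, Akap5 and Akap8l (3 of 12 in that fit, where 7.32% of all genes were called). Akap1, the mitochondrial anchor, was the most abundant per kb (0.18, and 0.07 without DDI2-KO replicate 1 and 0.29 without DDI2-KO replicate 2). Of the other effectors, 2 of 5 were tested and none was called by edgeR, DESeq2 or limma-voom (0 at an unadjusted p under 0.05 in edgeR); Rapgef4, an exchange factor opened by cAMP, led per kb (0.42, and 0.07 without DDI2-KO replicate 1 and 0.71 without DDI2-KO replicate 2). The phosphodiesterases, which break cAMP down, had 14 of 16 tested, 1 higher and 13 lower, and a median of -0.31. None was called by edgeR, DESeq2 or limma-voom (1 at an unadjusted p under 0.05 in edgeR), and edgeR without a filter called Pde4b (-0.62 with the filter). Pde8a, the most abundant of them per kb, had a log2 fold change of -0.01, which turned to 0.04 with library totals in place of TMM, to 0.08 without WT replicate 2 and to 0.09 without DDI2-KO replicate 1. With library totals, 2 phosphodiesterases were higher and 12 lower. None of 11 CREB factors and coactivators was called by edgeR, DESeq2 or limma-voom (median -0.21, 4 at an unadjusted p under 0.05 in edgeR), and edgeR without a filter called Creb1 (-0.74 with the filter). Crtc2, a coactivator held in the cytoplasm until cAMP rises, was the most abundant per kb in the mean of the 4 libraries, although Atf1 was above it in both libraries labelled DDI2-KO (log2 fold change of Crtc2 -0.49, edgeR adjusted p = 0.124). Of 6 tested guanylyl cyclases, the related enzymes that make cyclic GMP, edgeR called none (median 0.07, 1 at an unadjusted p under 0.05). DESeq2, and edgeR without a filter, called Gucy2c, which had 56 and 92 reads in WT against 22 and 8 in those labelled DDI2-KO (log2 fold change -1.93, edgeR adjusted p = 0.0768 with the filter), and Npr2, a natriuretic peptide receptor, was the most abundant per kb.

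Of 17 hepatic genes known to respond to cAMP, 15 were tested and edgeR called 2 (13.3%, against 2.53% of all genes), in opposite directions. DESeq2 called 3 (20.0%, against 7.29%) and limma-voom 1 (6.67%, against 0.993%), and 5 of the 15 had an unadjusted p under 0.05 in edgeR, where 23.5% of all genes did. Without a filter edgeR called 4 of 17 (where 7.32% of all genes were called): G6pc, Per1, Pde4b and Ppargc1a. Ppargc1a, a transcriptional coactivator and the third gene called by DESeq2, had 536 and 411 reads in WT against 191 and 202 in those labelled DDI2-KO (log2 fold change -0.86, edgeR adjusted p = 0.0650 with the filter). G6pc, the catalytic subunit of glucose-6-phosphatase and the last step of glucose release, had 4017 and 2209 reads in WT against 6714 and 9399 in those labelled DDI2-KO. Both libraries labelled DDI2-KO were above both WT libraries. The log2 fold change came to 1.81 (standard error 0.31; edgeR adjusted p = 0.0429). The adjusted p from edgeR was 0.0567 without DDI2-KO replicate 1 and 0.0947 without DDI2-KO replicate 2. Per1, which is also a gene of the circadian clock, had 301 and 254 reads in WT against 75 and 97 in those labelled DDI2-KO. Both libraries labelled DDI2-KO were below both WT libraries. The log2 fold change of Per1 came to -1.27 (standard error 0.25; edgeR adjusted p = 0.0438). It rose above the threshold under limma-voom (0.0591) and in edgeR without WT replicate 1 (0.155), WT replicate 2 (0.0839) or DDI2-KO replicate 1 (0.0689). Tat, an amino acid catabolic enzyme and the most abundant of the list per kb, had a log2 fold change of -0.04 (edgeR adjusted p = 0.930), which turned to 0.01 with library totals, to 0.16 without WT replicate 2 and to 0.00 without DDI2-KO replicate 1. The median over the 15 was -0.16, with 5 higher and 10 lower (7 and 8 with library totals).

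**Figure D3:**
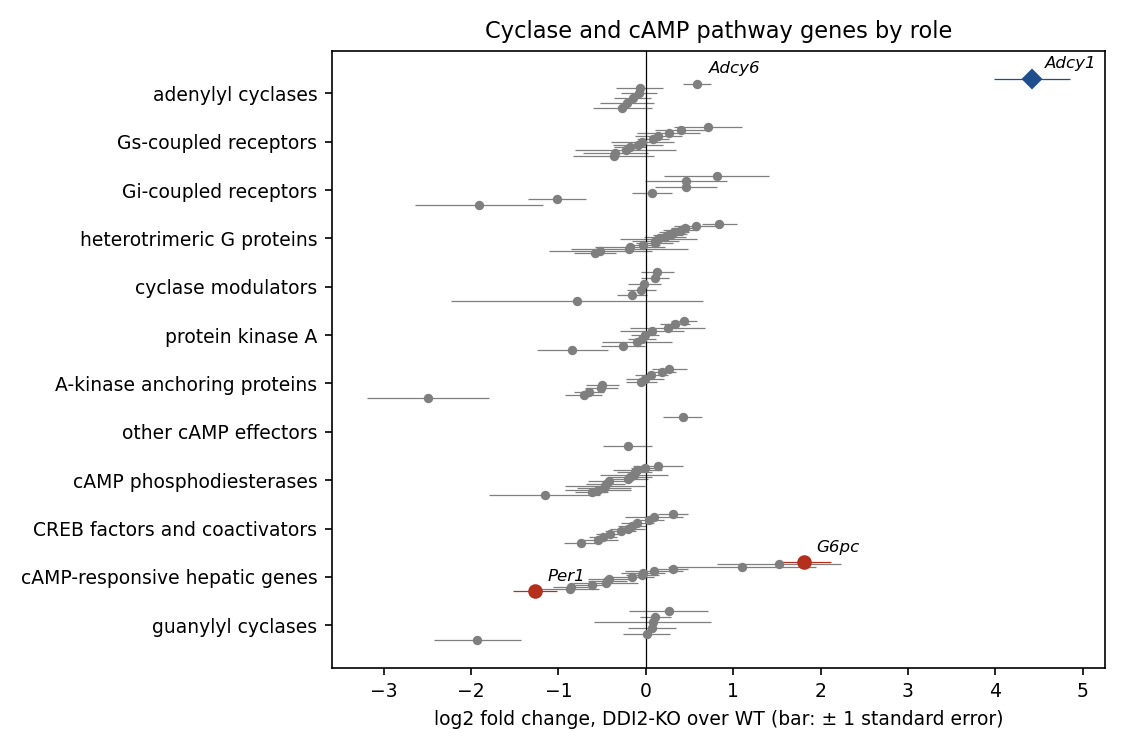
Fitted log2 fold change of each tested gene of the family and of the cAMP signalling lists, by role; points are genes, bars are 1 standard error, and red points have an adjusted p under 0.05 in edgeR. Adcy1, the blue diamond at 4.42, is shown as a description, and G6pc (1.81) and Per1 (-1.27) are the called genes among the lists.

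Around Adcy1, the 5 nearest protein-coding genes on each side were examined. Of these 10, 4 were tested, none was called by edgeR, DESeq2 or limma-voom, and none had an unadjusted p under 0.05 in any of these. On the near side after Adcy1, Gm11985 was listed at 0 and Igfbp1, a hepatic protein that binds insulin-like growth factors, begins 19.3 kb away. Igfbp1 had 569 and 2033 reads in WT against 1521 and 2733 in those labelled DDI2-KO. The groups overlapped, and replicates differed by as much as groups. The log2 fold change came to 1.10 (standard error 0.85; edgeR adjusted p = 0.528), and it moved with single libraries: 2.39 without WT replicate 2 (edgeR adjusted p = 0.0415), 1.53 without DDI2-KO replicate 1, 0.52 without DDI2-KO replicate 2 and 0.43 without WT replicate 1. Igfbp3, a related binding protein 27.6 kb away, had 1239 and 1959 reads in WT against 928 and 772 in those labelled DDI2-KO (log2 fold change -0.53, edgeR adjusted p = 0.248, and -0.87 without WT replicate 1 and -0.09 without WT replicate 2). Further out, Tns3 and Tbrg4 had log2 fold changes of 0.17 and 0.18 (adjusted p = 0.574 and 0.628 from edgeR). Tns3 came to 0.04 without WT replicate 1 and to 0.33 without WT replicate 2. Pkd1l1, Nacad and Ramp3 had too few reads to be tested, and Wap and Gm11983 were listed at 0.

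By Euclidean distance between centred log2 CPM over the 4 libraries, the genes most like Adcy1 were Wfdc16 (distance 0.75), Wfdc2 (0.79), Aqp7 (0.80), Gm28548 (1.31) and Mir703 (1.49). Gm28548 had 1 and 6 reads in WT against 36 and 27 in those labelled DDI2-KO, and Mir703 had 14 and 14 against 94 and 81. All 5 were low in both WT libraries and high in both libraries labelled DDI2-KO, which follows from how they were chosen. None is a cyclase or a listed gene of cAMP signalling. With 4 libraries the choice depends on the measure: by Pearson correlation, 0 of these 5 were among the 5 nearest.

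**Figure D4:**
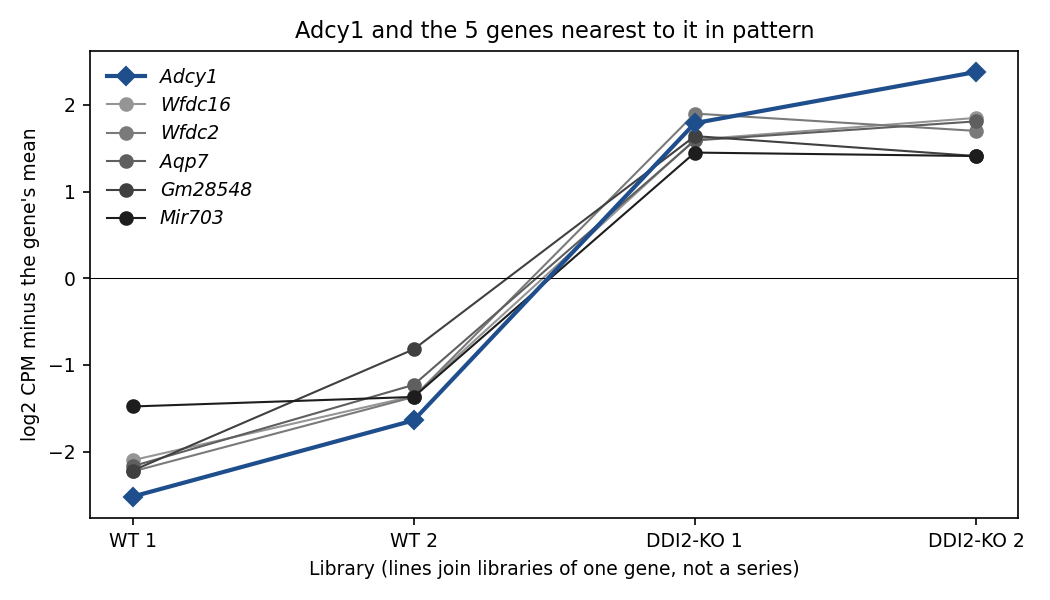
Log2 CPM of Adcy1 and the 5 genes nearest to it by Euclidean distance, each minus its own mean over the 4 libraries; lines join the libraries of 1 gene and stand for no order. Adcy1 has the widest span of the 6 lines, and Wfdc16, at a distance of 0.75, runs closest to it.

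Since Adcy1 is best known from neurons and also from the adrenal gland, markers of the cells that a piece of liver can hold were read beside it, with calls by edgeR unless another tool is named. Among all these markers limma-voom called Hsd3b1, Stab2 and Hba-a1 only. The hepatocyte list had all 7 markers tested, none called by edgeR, DESeq2 or limma-voom (0 at an unadjusted p under 0.05 in edgeR), and Alb as the most abundant, with a summed level of 69173 and 80954 CPM per kb in WT and 66429 and 66626 in those labelled DDI2-KO, as the labelled tissue would have. In the neuron and glia list 4 of 8 markers were tested, and edgeR called none (1 at an unadjusted p under 0.05). Snap25, a defining neuronal marker, was listed at 0 in all 4 libraries. The most abundant, Syt1, had 831 and 571 reads in WT against 296 and 271 in those labelled DDI2-KO (log2 fold change -0.90, edgeR adjusted p = 0.0556); DESeq2 called it (adjusted p = 0.0117), as did edgeR without a filter (0.00247). The summed level of the neuron and glia list was 3.53 and 2.69 CPM per kb in WT and 1.89 and 1.76 in those labelled DDI2-KO. This sum was mostly Syt1; without it the rest came to 0.569 and 0.474 in WT and 0.518 and 0.350 in those labelled DDI2-KO, and the groups overlapped.

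The adrenal cortex list had 2 of 5 markers tested, 1 of them called, and its summed level was 1.11 and 1.40 CPM per kb in WT and 3.33 and 4.59 in those labelled DDI2-KO, so it moved with Adcy1. This came from Hsd3b1, a steroid dehydrogenase and the most abundant of the list, with 59 and 62 reads in WT against 154 and 187 in those labelled DDI2-KO. The log2 fold change came to 1.90 (standard error 0.27; edgeR adjusted p = 0.0209, and 0.0583 without WT replicate 1). Star, which carries cholesterol into mitochondria and was the other tested marker, went the other way, with 21 and 40 reads in WT against 12 and 19 in those labelled DDI2-KO (log2 fold change -0.57, edgeR adjusted p = 0.549, and 0.04 without WT replicate 2). Cyp11b1 and Cyp21a1, the defining adrenal enzymes, were listed at 0 in all 4 libraries. Cyp11a1 had 2 and 0 reads in WT against 1 and 0 in those labelled DDI2-KO.

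Among cells of the liver itself, the Kupffer cell list (most abundant Cd5l) had 7 of 7 markers tested and none called (1 at an unadjusted p under 0.05), with summed levels of 298 and 257 CPM per kb in WT and 362 and 312 in those labelled DDI2-KO. DESeq2, and edgeR without a filter, called Adgre1, a macrophage surface receptor (log2 fold change 0.58, edgeR adjusted p = 0.0744 with the filter). The cholangiocyte list (Spp1) had 5 of 6 tested and none called by edgeR or DESeq2 (1 at an unadjusted p under 0.05 in edgeR, 0 in DESeq2), with 33.0 and 30.1 against 41.1 and 39.9 CPM per kb. These sums were higher in both libraries labelled DDI2-KO, the cholangiocyte sum mostly through Spp1: the rest of that list came to 1.48 and 2.06 against 2.18 and 2.07 CPM per kb, where replicate 2 of each group was nearly level. Without Cd5l the Kupffer cell sum was 191 and 155 against 215 and 191 CPM per kb, and replicate 1 of WT was nearly level with replicate 2 labelled DDI2-KO. The part of these lists in the Adcy1 and Adcy6 differences was not tested. The stellate cell list (Dcn) had 7 of 7 tested, with 101 and 112 against 96.8 and 94.2 CPM per kb. None was called by edgeR or DESeq2 (2 at an unadjusted p under 0.05 in each), and edgeR without a filter called Rgs5. In sign all 7 were lower (median log2 fold change -0.28), but with library totals 2 were higher and 5 lower. The sinusoidal endothelial list (Clec4g) had 7 of 7 tested, with 105 and 94.8 against 102 and 100 CPM per kb. In it only Stab2, a scavenger receptor, was called, with 2479 and 1890 reads in WT against 852 and 688 in those labelled DDI2-KO (log2 fold change -1.10, edgeR adjusted p = 0.0288, and 0.109 without WT replicate 1).

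Lists for blood cells and other tissues were read in the same way. The lymphocyte list (Nkg7 in the mean of the 4 libraries) had 8 of 8 markers tested, none called by edgeR or DESeq2 (0 at an unadjusted p under 0.05), and 4.92 and 5.57 CPM per kb in WT against 4.34 and 4.37. The neutrophil list (S100a9; Ly6g listed at 0) had 3 of 5 tested, none called by edgeR or DESeq2 (0 at an unadjusted p under 0.05), and 3.60 and 4.69 against 5.52 and 4.43 CPM per kb. The smooth muscle list (Tagln) had 3 of 4 tested, none called by edgeR or DESeq2 (1 at an unadjusted p under 0.05; edgeR without a filter called Myh11), and 3.33 and 8.28 against 5.08 and 3.59 CPM per kb. None of these separated the groups in the direction of Adcy1. The red blood cell list (Hbb-bs) had 5 of 5 tested and a summed level of 125 and 241 CPM per kb in WT against 80.0 and 70.3. All 5 were lower (median log2 fold change -1.14), and 4 had an unadjusted p under 0.05 in edgeR, DESeq2 and limma-voom alike, where 23.5% of all genes had one in edgeR. Hba-a1, a haemoglobin chain, was called in it (DESeq2 also called Hba-a2 and Hbb-bs, and edgeR without a filter Hba-a2 and Hbb-bt), with 862 and 1471 reads in WT against 266 and 203 in those labelled DDI2-KO (log2 fold change -1.94, edgeR adjusted p = 0.0338, 0.196 without DDI2-KO replicate 1 and 0.213 without DDI2-KO replicate 2). In the pancreatic acinar list 6 of 7 markers were listed at 0, and Cela1, the 1 tested, was not called by edgeR or DESeq2 (unadjusted p over 0.05 in both); its sum was 8.41 and 2.75 against 6.22 and 5.11 CPM per kb. In the adipocyte list Plin1, Lep and Retn were listed at 0 and none was tested, with sums from Adipoq of 0.0431 and 0.0469 against 0.0280 and 0.0630 CPM per kb.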

How the data were processed

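RNA from liver was sequenced as TruSeq Stranded mRNA libraries. The authors deposited raw counts, that is reads per Ensembl gene, not normalized. The submitters' processing notes name cutadapt 1.8, STAR 2.5.2b, HTSeq 0.6.1 and GRCm38; the strand setting and the annotation release are not given in the sources used here. Lines that name no gene were left out of library sizes and tests: reads on no feature came to 5.11%, 4.70%, 2.53% and 3.65% of the reads on genes (WT 1, WT 2, DDI2-KO 1, DDI2-KO 2), ambiguous reads to 2.50%, 2.54%, 3.49% and 3.66%, and reads that align in several places to 65.8%, 51.8%, 49.2% and 47.3%. Symbols, positions and exon lengths are from GENCODE M21, which holds 48349 of the 48709 gene identifiers.

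These counts were fitted with edgeR 4.0.16 (R 4.3.3), using filterByExpr, TMM, glmQLFit with robust estimation and glmQLFTest, with genotype as the only term and Benjamini-Hochberg adjustment over 13699 genes; a gene is called at an adjusted p under 0.05. The standard error is the log2 fold change divided by the square root of F. Alternatives were RLE and upper-quartile factors, library totals, DESeq2 1.42.0, limma-voom (limma 3.58.1, the package the authors used), no filter, a mean of at least 1 CPM, a replicate block, leaving out each library, the longest transcript as gene length, and Pearson correlation as the measure of likeness (log2 CPM with a prior count of 2). Scripts were tested on simulated data. Each library was taken as a sample of its own, as labelled. Replicates differed beyond counting noise (chi-square over its degrees of freedom was 65.4 in WT and 35.1 in DDI2-KO), which does not show that they came from separate mice.

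The members and lists were chosen with earlier results of these data known. Genes named are Ddi2, the members, the called and the most abundant genes of each role list (Gs and Gi receptors, G proteins, modulators, protein kinase A, anchoring proteins, other effectors, phosphodiesterases, CREB factors, cAMP-responsive genes, guanylyl cyclases) and marker list, the genes next to Adcy1, those most like it, and the 2 above and 2 below it by fold change. Any other gene was picked with its values in view. The transcripts of other genes were searched for 50-base stretches of the members; Adcy1, Adcy4, Adcy5, Adcy7, Adcy9 and Adcy10 shared none. The promoter window was set at 250 bases after a longer one had been seen. Cadmium-treated mice and cell lines were not analysed here.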

Additional observations from a re-analysis of the deposited data

Results flagged for a closer look

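Ambiguous reads, which fall on overlapping genes and are left out of every gene count, were 3.57% of the reads on genes as the mean of the libraries labelled DDI2-KO and 2.52% in WT. They stand here because these reads enter no comparison and both libraries labelled DDI2-KO were above both WT libraries. Adcy1 shares no exon bases with another gene in the annotation; Adcy2, Adcy3 and Adcy6 do. The part of these reads in the Adcy2, Adcy3 and Adcy6 counts was not tested.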

How the results depend on the processing

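The counts of calls, the cyclases tested and the other genes given with a log2 fold change in the lists or beside Adcy1 were refitted under the alternatives, except the genes DESeq2 or edgeR without a filter alone called; the role and marker lists were counted again under the scalings and by tool. Orders of levels, percentiles and the ratio of Adcy6 to Adcy9 were not. For the most abundant genes of the role lists, Syt1, Star and the genes next to Adcy1 by fold change, this was added after the data were seen. Among the genes refitted, library totals turned the sign of Pde8a (0.04) and Tat (0.01), and no other scaling, test or filter turned a sign. Aqp7 had no adjusted p in DESeq2, and Sult2a3, Aqp7, Wfdc16 and Star fell under a mean of 1 CPM. The number of genes called was 346 by edgeR with TMM, 940 with DESeq2, 136 with limma-voom and 1544 without a filter on low counts, and from 153 (without WT replicate 1) to 631 (without DDI2-KO replicate 2) with 1 library left out. Upper-quartile factors gave 126 higher and 191 lower calls and library totals 230 and 148, against 182 and 164. Library totals moved the median of all genes from -0.01 to 0.03 and turned the list medians of the Gs receptors (0.01), the modulators (0.02) and protein kinase A (0.03); upper-quartile factors gave -0.07 for all genes and turned those of the sinusoidal endothelial (-0.01) and acinar (-0.03) lists. Of the other cyclases, 1 (Adcy6) was called without a filter and 0 with any library left out. Of the cAMP signalling genes DESeq2 called 7, limma-voom 1 (G6pc) and edgeR without a filter 10 of 125 (where 7.32% of all genes in that fit were called), and leaving out 1 library gave 1 (without DDI2-KO replicate 1) to 4 (without DDI2-KO replicate 2). Of the genes next to Adcy1 on the chromosome, 0 to 1 were called with 1 library left out. With 1 library left out, log2 fold changes ranged from 3.96 to 5.06 for Adcy1, 0.53 to 0.64 for Adcy6, 0.19 to 0.38 for Ddi2, -0.30 to 0.00 for Adcy4, -0.47 to 0.01 for Adcy5, -0.48 to 0.26 for Adcy9 (0.17 without WT replicate 1), -0.04 to 0.37 for Tbrg4, -0.30 to 0.38 for S1pr1, -0.04 to 0.29 for Calm2 (-0.01 without WT replicate 1), -0.11 to 0.09 for Pde8a (0.08 without WT replicate 2), -0.21 to 0.16 for Tat (0.00 without DDI2-KO replicate 1) and -1.03 to 0.04 for Star. The lone library of a group was then assumed to vary like the pair in the other. The difference in the Adcy1 share ranged from 3.06 to 5.74 percentage points (4.40 with all libraries, 4.11 with the longest transcript), and that in the summed level from 0.544 to 2.49 CPM per kb. Of the 5 genes most like Adcy1, 0 were kept with Pearson correlation. The cause of these shifts was not tested.

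With the replicate number as a replicate block, 1108 genes were called, among them 9 cAMP signalling genes, of which Igfbp1 is also the 1 gene called next to Adcy1 (log2 fold change 1.32, adjusted p = 0.00639 from edgeR); Adcy6 had an adjusted p of 0.0625. Deviations of same-numbered libraries from their group means had a correlation of 0.0618 over genes, and the labels tie the numbers to nothing shared. At this depth Adcy2, Adcy8 and Adcy10 had too few reads to pass the filter.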
